A study of Mus musculus with 8 samples.

Results

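The Bcl2 family of survival and death genes was examined in mouse blood monocytes. The genes were 10 named members, namely the survival genes Bcl2, Bcl2l1 and Mcl1, the pore-forming genes Bax and Bak1, and the BH3-only genes Bcl2l11, Bid, Bbc3, Bad and Pmaip1. A probe set annotated to exactly 1 gene symbol was found for 9 of the 10, and each was represented by its brightest probe set on average across the 8 arrays, among 18193 genes in all. Bax was not analysed here, because the annotation used pairs no single-symbol probe set with it. All 9 measured members had a mean above the background level of 6.98 log2 units, which is the 95th percentile of 114 olfactory, vomeronasal, taste and keratin-associated receptor and structural genes.

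The monocytes came from male C57BL/6 mice that received 1 µm fluorescent latex beads intravenously, and were sorted from blood 4 days afterwards. The 4 groups were Gr1lo (nonclassical, low in Ly-6C) cells with beads, Gr1lo cells without beads, Gr1hi (classical, high in Ly-6C) cells with beads and Gr1hi cells without beads, with 2 arrays each. Clodronate liposomes, which kill phagocytes, are described in 2 ways. In the design text they precede the beads by 3 days and no subset is singled out, but in the treatment protocol they belong to the Gr1hi labelling and are left out for Gr1lo. Under the second reading, subset and pretreatment cannot be told apart. The series text calls the 2 arrays of a group biological replicates. It does not say which mice each array came from, so the p-values measure the spread between these arrays, which may be technical, and precision is limited by having so few of them.

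Cells decide between survival and mitochondrial death through the balance of this family. Bcl2, Bcl2l1 (Bcl-xL) and Mcl1 bind and restrain their death-promoting relatives, Bax and Bak1 open the outer mitochondrial membrane when released or activated, and BH3-only proteins relay stress to both kinds. Most of the BH3-only proteins neutralise survival members, each with its own partners: Pmaip1 (Noxa) binds Mcl1 best, and Bad binds Bcl2 and Bcl2l1. Nonclassical monocytes are known to depend on the receptor Cx3cr1 and the nuclear receptor Nr4a1 for survival in the blood, and an enforced Bcl2 transgene is known to restore monocytes in mice that lack Cx3cr1.

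Array medians lay between 6.12 and 6.19 log2 units. Across probe sets, the correlation was 0.9935 to 0.9963 within a group and 0.9714 to 0.9776 between subsets. The subset labels were borne out by markers: all 7 nonclassical markers were above background in Gr1lo cells, and their summed signal was 14.97 to 15.25 log2 units on the Gr1lo arrays against 12.02 to 12.29 on the Gr1hi arrays. The summed signal of 5 measured classical markers was 13.12 to 14.25 on the Gr1lo arrays and 15.30 to 15.55 on the Gr1hi arrays. The 2 Gr1lo arrays without beads stood apart from each other for the tissue macrophage gene C1qa, at 11.37 on array 1 and 8.16 on array 2.

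Do the survival and death genes differ between Gr1lo and Gr1hi monocytes? Death members went both ways. Of the survival members Bcl2 was higher, and only Bcl2l1 was lower, by a small difference that passed in neither bead state. None of the 4 probe sets of Bcl2l1 passed when every probe set was tested on its own. Mcl1 did not pass by the probe set that stood for it. Its other 5 probe sets were higher in Gr1lo cells and passed on their own, averaged over bead state. Gr1lo cells had far more Bcl2 and Pmaip1 and more Bbc3, and less Bcl2l11, Bad and Bid, whether or not the cells carried beads. Averaged over bead state, 7 of the 9 measured members passed limma's test at a Benjamini-Hochberg adjusted p under 0.05, 3 higher and 4 lower, where 35.6% of all genes passed (14.8% higher and 20.9% lower). With beads, 6 of 9 passed against 26.5% of all genes, and without beads 6 of 9 against 23.6%. All 9 members were above background, where genes passed more often. Of the 8788 genes above background, fitted alone, 5393 passed averaged over bead state, 4545 with beads and 4025 without. The members' counts lie nearer to these shares than to those of all genes, and are not read as a trait of the family. The median difference of the members was 0.00, beside a median of -0.05 over all genes. All 5 BH3-only genes passed, 2 higher and 3 lower. As a background, arrays of the 2 subsets did not overlap for 33.6% of all genes when both bead states were pooled, for 61.4% with beads and for 62.0% without. In bulk RNA, a change in the share of cells that express a gene and a change in the level per cell cannot be told apart.

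**Figure D1:**
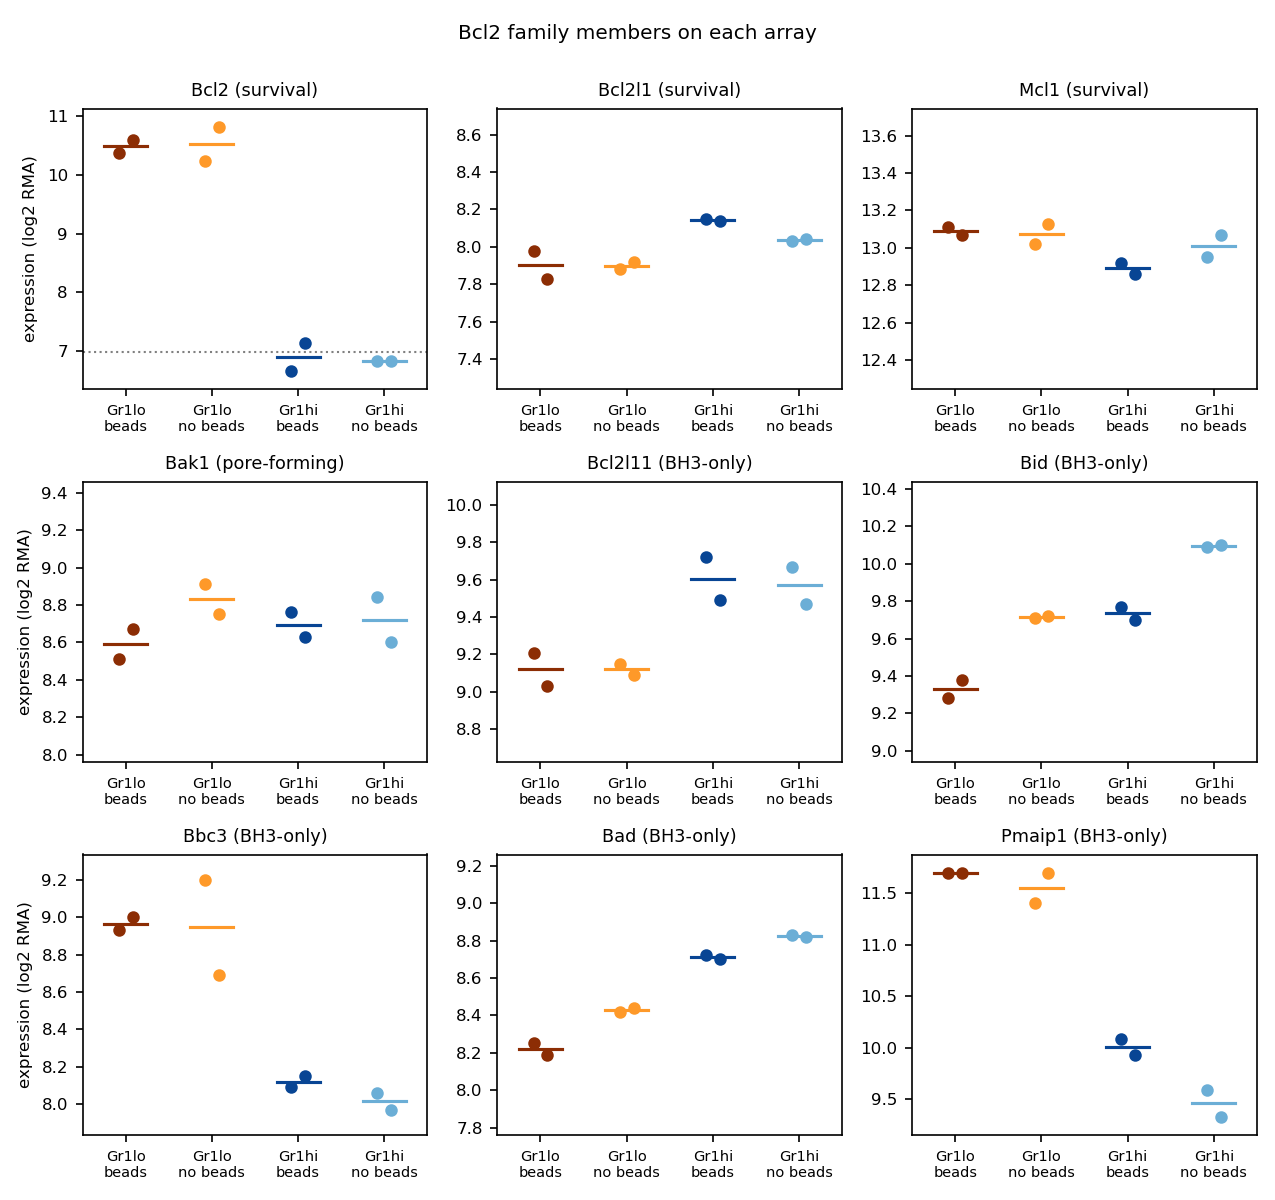
Expression of the 9 measured members on each array, in log2 units of RMA signal (vertical axes, a different range in each panel), for Gr1lo cells with and without beads and Gr1hi cells with and without beads. Each point is 1 array, each bar the mean of 2 arrays, and the dotted line the background level of 6.98. Bcl2, Bbc3 and Pmaip1 lie higher on all 4 Gr1lo arrays than on any Gr1hi array, and Bcl2l11 and Bad lie lower.

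RefSeq promoter windows of GRCm38.p6, from 250 bases before to 50 bases after an annotated start, were searched for 9 of the 10 members, 15 windows in all. Bax was among the 9, and Pmaip1 was not searched. Windows of Bbc3 overlap in part, so some GC boxes lie in more than 1 of them. The motifs below were searched on both strands: the GC box GGGCGG, the CCAAT box CCAAT, the TATA box TATAAA, the forkhead element TGTTTAC, the cyclic AMP response element TGACGTCA and the Nr4a1 element AAAGGTCA. The forkhead element, the kind of site that Foxo factors bind, was found in 2 of the 15 windows, 1 each of Bcl2l11 and Bbc3, and in 3.65% of all 32851 windows. The GC box was in 10 of the 15 against 35.7% of all windows, and the CCAAT box in 4 against 37.4%. The TATA box (13.6% of all windows), the cyclic AMP response element (1.79%) and the Nr4a1 element (1.51%) were in none. No motif of this set lies within another, and these are matches of letters, not tested sites. Shown are Bcl2, with the widest subset gap, at chr1:106714241-106714540 on the minus strand, and the windows with a forkhead element of Bbc3, at chr7:16310011-16310310, and Bcl2l11, at chr2:128125788-128126087, both on the plus strand. Capitals mark the motifs found.
Bcl2: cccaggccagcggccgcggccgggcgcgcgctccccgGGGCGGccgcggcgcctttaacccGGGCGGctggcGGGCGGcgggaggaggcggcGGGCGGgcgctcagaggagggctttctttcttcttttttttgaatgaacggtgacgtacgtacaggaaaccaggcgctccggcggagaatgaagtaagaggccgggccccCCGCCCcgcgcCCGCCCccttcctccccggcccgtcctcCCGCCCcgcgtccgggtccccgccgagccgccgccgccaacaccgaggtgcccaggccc
Bbc3: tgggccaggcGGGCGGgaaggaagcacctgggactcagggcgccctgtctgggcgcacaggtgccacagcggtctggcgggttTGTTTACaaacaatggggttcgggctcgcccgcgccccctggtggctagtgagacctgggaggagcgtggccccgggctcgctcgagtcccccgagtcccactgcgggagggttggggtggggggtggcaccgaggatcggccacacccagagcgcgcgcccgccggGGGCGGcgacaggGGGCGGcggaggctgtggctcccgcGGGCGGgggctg
Bcl2l11: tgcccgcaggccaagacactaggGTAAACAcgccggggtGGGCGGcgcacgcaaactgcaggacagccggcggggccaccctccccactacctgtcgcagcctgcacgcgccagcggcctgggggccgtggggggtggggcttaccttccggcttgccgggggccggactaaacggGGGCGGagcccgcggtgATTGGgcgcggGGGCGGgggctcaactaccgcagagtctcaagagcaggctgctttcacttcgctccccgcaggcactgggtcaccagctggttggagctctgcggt
Bcl2 holds 7 GC boxes and none of the other motifs. In Bbc3 the forkhead element begins at position -167 relative to the start, and in Bcl2l11 its reverse complement begins at position -227. Bbc3 was higher in Gr1lo cells and Bcl2l11 lower, and the part of this motif in either difference was not tested.

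Bcl2, the founding survival gene, showed the widest gap of the members. It read 10.38 and 10.60 log2 units on the Gr1lo arrays with beads and 10.24 and 10.82 on those without, against 6.66 and 7.13 on the Gr1hi arrays with beads and 6.82 and 6.83 on those without. All Gr1lo arrays lay well above all Gr1hi arrays, and 3 of the 4 Gr1hi arrays were below background. The difference was 3.60 ± 0.20 (moderated SE) with beads (limma adjusted p = 1.07e-05) and 3.71 ± 0.20 without beads (adjusted p = 1.10e-05). Since both bead-free Gr1hi arrays were below background, the probe set that stood for Bcl2 was at least 11.8-fold higher in bead-free Gr1lo cells. Without Gr1lo array 1 of the bead-free group the difference was 4.00, and without array 2 it was 3.42. With arrays below background raised to it, the difference was 3.44 with beads and 3.49 averaged over bead state, as lower bounds for this probe set.

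All 5 probe sets of Bcl2 gave the same direction, and each passed the test when every probe set was tested on its own (32.9% of 34945 probe sets passed). Their differences averaged over bead state ran between 1.55 and 3.71 log2 units. The size of the Bcl2 gap depends on the probe set. One of the 5 was below background on average, and one carries the suffix that the manufacturer gives to probe sets that may bind other transcripts.

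Mcl1, a short-lived survival protein on which many myeloid cells rely, gave answers that depended on the probe set and on the processing. The probe set that stood for Mcl1 read 13.11 and 13.07 log2 units in Gr1lo cells with beads and 13.02 and 13.13 without, against 12.92 and 12.86 in Gr1hi cells with beads and 12.95 and 13.07 without. These arrays overlapped and the averaged difference of 0.14 ± 0.06 did not pass (limma adjusted p = 0.126). The same probe set passed with cyclic loess (0.22, adjusted p = 0.0190), with median centring (0.21, adjusted p = 0.0283) and with trend and robust moderation (0.14, adjusted p = 0.0299). The other 5 probe sets of Mcl1 all passed when tested on their own, with differences of 0.30 to 0.76. The one with the widest gap read 12.85 and 12.84 in Gr1lo cells with beads and 12.80 and 12.78 without, against 12.07 and 11.78 in Gr1hi cells with beads and 12.29 and 12.07 without. Averaged over all 6 probe sets, Mcl1 rose by 0.53 in Gr1lo cells (adjusted p = 0.000373). Of the 6, 3 carry the suffix for possible binding of other transcripts, among them the one with the widest gap. Without the suffix were the probe set that stood for Mcl1, at 0.14, and others at 0.64 ± 0.10 and 0.30 ± 0.07. The latter passed (limma adjusted p = 0.00111 and 0.0131), with every Gr1lo array above every Gr1hi array. Which probe set reads Mcl1 best was not tested.

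Bcl2l1 encodes Bcl-xL, a survival protein that also sustains platelets and erythroid cells. It read 7.98 and 7.83 log2 units in Gr1lo cells with beads and 7.88 and 7.92 without, against 8.15 and 8.14 in Gr1hi cells with beads and 8.03 and 8.04 without. Every Gr1lo array was below every Gr1hi array. The averaged difference was small, -0.19 ± 0.06, and passed (limma adjusted p = 0.0393). The difference within either bead state did not pass, and the averaged call was lost in 10 of 15 alternative settings, in which the adjusted p reached 0.238. Among them were the omission of any of 7 single arrays, all but Gr1lo array 1 with beads. Only 1 of its 4 probe sets was above background.

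Bak1, the pore-forming gene that was measured, was at 8.51 and 8.67 log2 units in Gr1lo cells with beads and 8.91 and 8.75 without, against 8.76 and 8.63 in Gr1hi cells with beads and 8.84 and 8.60 without. Arrays of the 2 subsets overlapped in either bead state, while the Gr1lo arrays with beads lay below those without. The averaged subset difference was 0.00 ± 0.08, with a 95% interval of -0.18 to 0.19.

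Pmaip1, the BH3-only partner of Mcl1, had the largest difference of the measured death genes. Its signal was 11.70 and 11.70 log2 units on the Gr1lo arrays with beads and 11.41 and 11.70 on those without, against 10.09 and 9.93 on the Gr1hi arrays with beads and 9.59 and 9.33 on those without. No array of one subset reached the range of the other. It rose by 1.69 ± 0.13 with beads (3.22-fold, limma adjusted p = 4.19e-05) and by 2.10 ± 0.13 without beads (4.28-fold, adjusted p = 1.78e-05). Without bead-free Gr1lo array 1 the bead-free difference was 2.24, and without array 2 it was 1.95.

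Bbc3 encodes Puma, a BH3-only protein that is induced by p53 and by growth factor loss and binds every survival member. It read 8.93 and 9.0 log2 units in Gr1lo cells with beads and 9.20 and 8.69 without, against 8.09 and 8.15 in Gr1hi cells with beads and 8.06 and 7.97 without. All Gr1lo arrays were above all Gr1hi arrays, although the bead-free Gr1lo arrays lay 0.51 apart. Bbc3 rose by 0.85 ± 0.15 with beads (limma adjusted p = 0.00310) and by 0.92 ± 0.15 without (adjusted p = 0.00258). The bead-free difference was 0.67 without bead-free Gr1lo array 1 and 1.18 without array 2. Pmaip1 and Bbc3 have 1 probe set each.

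Bcl2l11, which encodes Bim, the BH3-only protein that ends the life of many blood cells, went the other way. It read 9.21 and 9.03 log2 units in Gr1lo cells with beads and 9.15 and 9.09 without, against 9.72 and 9.49 in Gr1hi cells with beads and 9.67 and 9.47 without. It fell by 0.48 ± 0.11 with beads (limma adjusted p = 0.0133) and by 0.45 ± 0.11 without (adjusted p = 0.0208). All 5 of its probe sets fell when averaged over bead state, by between 0.36 and 0.59. The bead-free call was lost without bead-free Gr1lo array 1 (-0.48, adjusted p = 0.0503), without array 2 of that group (-0.42, adjusted p = 0.0800), without bead-free Gr1hi array 1 and with centring on the median. With beads the call was lost without Gr1hi array 1 or Gr1lo array 2. The averaged call held in all 15 settings.

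Bad, a BH3-only protein that survival kinases hold inactive by phosphorylation, read 8.25 and 8.19 log2 units in Gr1lo cells with beads and 8.42 and 8.44 without, against 8.72 and 8.70 in Gr1hi cells with beads and 8.83 and 8.82 without. Its groups did not overlap between subsets. Bad fell by 0.49 ± 0.08 with beads (limma adjusted p = 0.00189) and by 0.40 ± 0.08 without (adjusted p = 0.00696), and both of its probe sets passed on their own when averaged over bead state.

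Bid links death receptors to mitochondria once caspase-8 has cut it. It read 9.28 and 9.38 log2 units in Gr1lo cells with beads and 9.71 and 9.72 without, against 9.77 and 9.70 in Gr1hi cells with beads and 10.09 and 10.10 without. Gr1lo cells without beads and Gr1hi cells with beads therefore had about the same signal, and within each bead state the Gr1lo arrays were lower. Bid fell by 0.41 ± 0.08 with beads (limma adjusted p = 0.00613) and by 0.38 ± 0.08 without (adjusted p = 0.0109). Of its 3 probe sets, 2 passed on their own when averaged over bead state and the third differed by -0.13. The call with beads was lost without Gr1hi array 1 with beads, and with the mean of all probe sets, at -0.24. The call without beads was lost without either bead-free Gr1hi array.

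**Figure D2:**
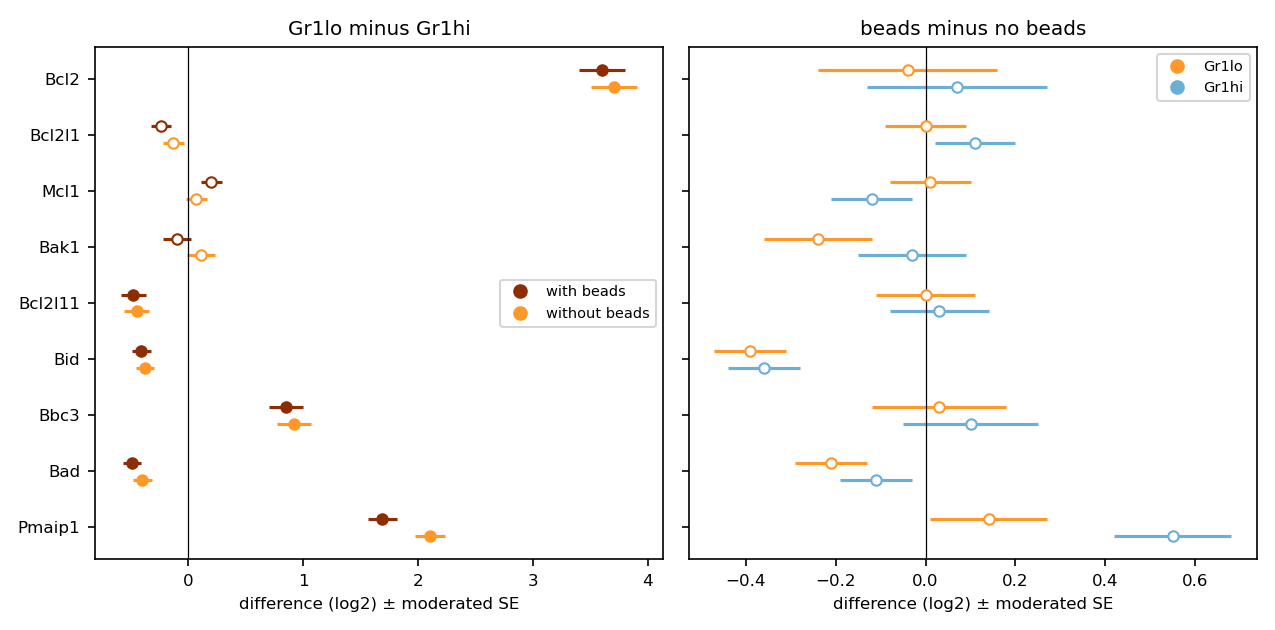
Differences of the 9 members in log2 units with moderated SE, for Gr1lo minus Gr1hi with and without beads (left) and for beads minus no beads in Gr1lo and Gr1hi cells (right, on a narrower scale). Filled points have an adjusted p under 0.05. 6 genes are filled on the left in both bead states, and none is filled on the right, where Bid lies at -0.39 and -0.36 and Pmaip1 at 0.14 and 0.55.

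Markers of other cell types were read on the same arrays. Of 9 neutrophil genes 8 were measured, and their summed signal was 9.71 to 10.40 log2 units on the Gr1lo arrays against 13.48 to 14.26 on the Gr1hi arrays. In Gr1lo cells 2 of the 8 were above background with beads and 3 without, against 7 and 8 in Gr1hi cells. S100a8 and S100a9 in that list are also expressed by classical monocytes. Summed macrophage markers were at 12.28 to 12.79 in Gr1lo cells with beads and at 10.49 and 13.25 without, against 11.90 to 11.92 in Gr1hi cells with beads and 10.70 to 10.72 without, and all 7 were measured. Of 5 measured B cell genes 1 was above background in any group, of 5 NK cell genes 2 were, and of 6 T cell genes 3 were. Summed signals over the 8 arrays were 8.51 to 9.25 for B cell genes, 8.97 to 9.41 for T cell genes and 9.86 to 11.70 for platelet genes. Summed signals of dendritic cell genes were 9.37 to 9.47 in Gr1lo cells with beads and 10.73 to 11.02 without. In Gr1hi cells they were 10.22 to 10.34 with beads and 10.26 to 10.34 without. The part of any of these cells in the members' differences was not tested.

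**Figure D3:**
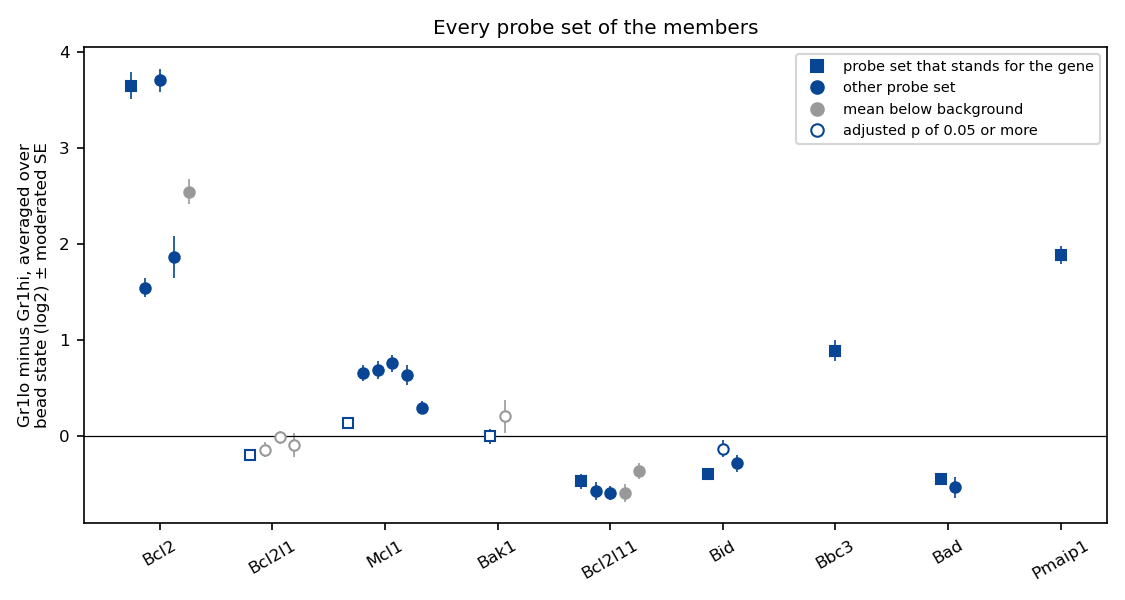
Gr1lo minus Gr1hi averaged over bead state, in log2 units with moderated SE, for each of the 29 probe sets of the 9 members. Squares stand for the gene in the tests, grey points have a mean below background, and open points have an adjusted p of 0.05 or more over all probe sets. All 5 Bcl2 probe sets lie above 0 and all 5 of Bcl2l11 below it, and the Mcl1 square is the lowest of the 6 Mcl1 probe sets.

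Do the survival and death genes differ between monocytes that carry beads and those that do not? Bid was the 1 member that passed. Averaged over both subsets it fell by 0.38 ± 0.06 with beads (1.30-fold lower, limma adjusted p = 0.0337), where 0.764% of all genes passed and 0.489% were lower. The difference was -0.39 ± 0.08 in Gr1lo cells and -0.36 ± 0.08 in Gr1hi cells, and in each subset both bead-carrying arrays were below both bead-free arrays. Within a single subset 0 of 9 members passed, against 0.225% of all genes in Gr1lo and 0.247% in Gr1hi cells. These shares rest on single arrays: 41 genes passed in Gr1lo cells, and 354 without bead-free Gr1lo array 2, while 45 passed in Gr1hi cells, and 0 to 6 without any 1 Gr1hi array. At an unadjusted p under 0.05, limma gave 2 members in each subset, Bid and Bad in Gr1lo cells and Bid and Pmaip1 in Gr1hi cells, where 13.2% and 9.93% of all genes had such a p.

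The Bid call depended on the setting. It was lost in 9 of 15 alternative settings, with an adjusted p of up to 0.134, while the difference stayed between -0.40 and -0.32. The settings that ended it were cyclic loess, the mean of all probe sets, and the omission of any 1 of 7 arrays, all but bead-free Gr1lo array 2. Its 3 probe sets differed by -0.30 to -0.38 with beads, and 1 of the 3 passed on its own. Poly-A controls, which are spiked-in bacterial transcripts, had higher signals with beads in both subsets. They read 10.45 ± 0.01 log2 units (SD, n = 2) in Gr1lo cells with beads and 8.98 ± 0.41 without, and 9.65 ± 0.28 in Gr1hi cells with beads and 7.93 ± 0.26 without. Their averaged bead difference was 1.60 (two-sided exact permutation p = 0.0556, the smallest that 36 assignments can give). Classical markers summed to 13.12 to 13.15 in Gr1lo cells with beads and 14.21 to 14.25 without, and to 15.30 to 15.31 in Gr1hi cells with beads and 15.54 to 15.55 without. The part of these measures in the Bid difference was not tested. Hybridization controls, another set of control probe sets, were 0.63 higher with beads on average (two-sided exact permutation p = 0.0556). They read 12.01 in Gr1lo cells with beads and 10.94 without, and 11.32 and 11.13 in Gr1hi cells. Poly-A controls were also higher in Gr1lo than in Gr1hi cells in both bead states. The part of the controls in the bead and subset differences was not tested.

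Pmaip1 differed by 0.55 ± 0.13 with beads in Gr1hi cells, with both bead arrays above both bead-free arrays, but did not pass (limma adjusted p = 0.189). In Gr1lo cells it differed by 0.14 ± 0.13, which was 0.00 without bead-free Gr1lo array 1 and 0.29 without array 2. Bad differed by -0.21 ± 0.08 in Gr1lo and -0.11 ± 0.08 in Gr1hi cells, and Bak1 by -0.24 ± 0.12 and -0.03 ± 0.12. The Gr1lo value of Bak1 was -0.16 without bead-free array 1 and -0.32 without array 2. Arrays of 2 against 2 that do not overlap are common here, at 42.7% of all genes for beads in Gr1lo cells and 44.2% in Gr1hi cells.

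Of the survival genes, each read by the probe set that stood for it, 0 passed with beads in either subset. In limma 0 had an unadjusted p under 0.05. For Bcl2 the averaged bead difference was 0.01, with a 95% interval of -0.32 to 0.34. For Bcl2l1 it was 0.06 (-0.08 to 0.19), and for Mcl1 -0.05 (-0.19 to 0.09). The probe set that stood for Bcl2 was below background on 3 of 4 Gr1hi arrays, so it could show little bead difference there. Over the 5 Bcl2 probe sets the bead difference ran between -0.15 and 0.47 in Gr1hi cells. Averaged over subsets it ran between -0.05 and 0.34, and none passed in either comparison. In bead-free Gr1lo cells the 2 Bcl2 arrays lay 0.58 apart, so that the Gr1lo bead difference of -0.04 was -0.33 without array 1 and 0.25 without array 2, and neither passed. The Gr1lo bead difference of Bbc3, 0.03, was likewise 0.28 and -0.23.

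The difference between the bead differences of Gr1lo and Gr1hi cells passed for 0 of 9 members, against 0.0440% of all genes, and 0 of 9 had an unadjusted p under 0.05 in limma, against 7.84% of all genes. The 8 genes that passed became 167 without bead-free Gr1lo array 2. It was widest for Pmaip1, at -0.41 ± 0.18 (limma adjusted p = 0.633, 95% interval -0.82 to 0.00), and was -0.56 without bead-free Gr1lo array 1 and -0.26 without array 2. For Bid it was -0.03 ± 0.12, with an interval of -0.30 to 0.23.

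The rest of the pathway was followed in lists chosen for this family. Each listed gene was read by its brightest probe set on average, and other probe sets of these genes were not compared. Their counts averaged over bead state stand against 35.6% of all genes that passed in that comparison, 14.8% higher and 20.9% lower, and their medians against -0.05. Most of the measured genes in each list were above background, and of the 8788 such genes, fitted alone, 5393 passed. Of 16 other Bcl2 relatives 11 were measured and 5 passed between subsets averaged over bead state, 2 higher and 3 lower, a share close to that of all genes, with a median of -0.09. Bmf, a BH3-only gene linked to the cytoskeleton, rose by 0.96 ± 0.13 in Gr1lo cells (limma adjusted p = 0.000569), at 9.70 against 8.74 log2 units in Gr1hi cells. Bnip3, a hypoxia-inducible relative with a role in mitophagy, fell by 1.14 ± 0.06 (adjusted p = 2.91e-06), at 8.11 against 9.25. Bcl2l2, the survival gene for Bcl-w, rose by 0.18, and Bcl2l12 and Bcl2l13 fell by 0.25 and 0.19. The Bcl2a1 genes, near-identical copies, have no single-symbol probe set and were not used here. With beads 0 of the 11 passed in limma in either subset or on average, and 1 in each subset had an unadjusted p under 0.05.

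Downstream of the mitochondria, all 15 measured of 18 genes of the apoptosome and caspase list passed between subsets, 9 higher and 6 lower, with a median of 0.23. Htra2, a mitochondrial protease that can disable caspase inhibitors, rose by 1.42 ± 0.08 in Gr1lo cells (limma adjusted p = 3.28e-06). The inhibitor of apoptosis genes Birc3 and Xiap rose by 0.63 ± 0.06 and 0.54 ± 0.06. Birc5, of the same family, went the other way, with the widest difference of the list at -2.20. It read 5.46 log2 units in Gr1lo cells with beads and 6.04 without, against 7.95 in both Gr1hi groups. All its Gr1lo arrays were below background, so averaged over bead state it was at least 1.96-fold lower. Naip5 and Naip6, better known as inflammasome sensors, rose by 1.23 and 0.70, but are close copies whose signal can be shared. Aifm1, a respiratory flavoprotein that can act in caspase-independent death, fell by 0.45 ± 0.06.

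Of 10 genes of the death receptor pathway 9 were measured and 4 passed between subsets, 2 higher and 2 lower, again near the share of all genes. Casp8, the caspase that cuts Bid, fell by 0.46 ± 0.07 in Gr1lo cells (limma adjusted p = 0.00113), and Cflar, its inhibitor, rose by 0.45 ± 0.08 (adjusted p = 0.00295). The tumour necrosis factor receptor gene Tnfrsf1a rose by 0.30 ± 0.07 and Fas fell by 0.23 ± 0.08. The list's median was -0.08. Among 19 regulators of the members 17 were measured and 11 passed, 8 higher and 3 lower, with a median of 0.18. That is near the share that passed among genes above background, fitted alone. Nr4a1 and Cx3cr1 in this list are also among the nonclassical markers used to check the subset labels. Their higher signal in Gr1lo cells is therefore not a separate result.

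Nr4a1 led the regulators, at 13.49 and 13.56 log2 units in Gr1lo cells with beads and 13.35 and 13.54 without, against 11.25 and 11.36 in Gr1hi cells with beads and 11.16 and 11.31 without. Its averaged difference was 2.21 ± 0.07 (limma adjusted p = 2.10e-07). Cx3cr1 rose by 1.45 ± 0.08, the kinase gene Pim1, whose product can phosphorylate Bad, by 1.40 ± 0.20, Foxo3, a transcription factor that can induce Bcl2l11 and Bbc3, by 0.47 ± 0.08, and Ywhaz, a 14-3-3 gene whose product can hold Bad in the cytosol, by 0.38 ± 0.06. The probe set that stood for Ywhaz carries the suffix for possible binding of other transcripts. Vdac2, a mitochondrial channel that binds Bak1, fell by 0.62 ± 0.05. With beads 0 of the 52 measured genes of these 4 lists passed in limma in either subset or on average. At an unadjusted p under 0.05 there were 6 in Gr1lo cells, 6 in Gr1hi cells and 8 on average, where 13.2%, 9.93% and 15.3% of all genes had such a p.

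**Figure D4:**
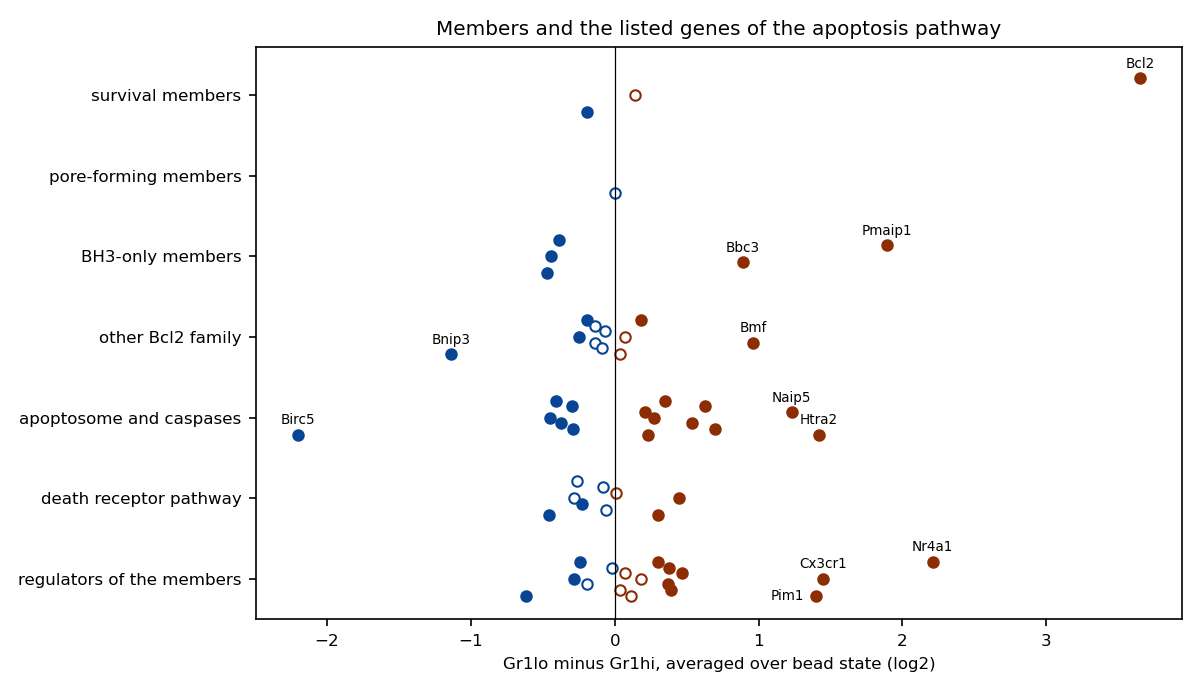
Gr1lo minus Gr1hi averaged over bead state, in log2 units (horizontal axis), for the 9 members and for the measured genes of 4 further lists. Each point is 1 gene, red above 0 and blue below, filled at an adjusted p under 0.05, and genes with a difference of at least 0.8 in size are named. Points fall on both sides of 0 in all 4 further lists.

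Bcl2 had the smallest p of the members between subsets, and the genes above background whose pattern over the 8 arrays was most like it were Hgf, Abcc5, Tiam2 and Nr4a1, with Pearson r between 0.9972 and 0.9976 out of 8788 genes. These 8 points fall on 2 levels, 1 for each subset, and the r values are a description. Abcc5 differed between Gr1lo and Gr1hi cells by 1.14 and Tiam2 by 2.21. For Bid, which had the smallest p for beads, the nearest were Tsn, Dennd11, Serp1 and Gng10, with r between 0.9826 and 0.9905. Dennd11 was at 8.57 in Gr1lo cells with beads and 8.92 without, and at 8.99 in Gr1hi cells with beads and 9.45 without, and its bead difference of -0.40 ± 0.06 passed (limma adjusted p = 0.0265). The bead differences of Tsn, Serp1 and Gng10 did not pass.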

How the data were processed

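Sorted blood monocytes gave RNA (TRIzol, then RNeasy columns) that was amplified, biotin-labelled and measured on Affymetrix mouse arrays, per the labels' protocols. What the authors deposited is a single table of log2 values for 45101 probe sets on 8 arrays, made with RMA, per the submitters' processing notes; software versions and the chip definition are stated in none of the sources used here. The values were used as deposited.

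Probe sets with 1 gene symbol (34945) were kept, while 932 with several, 9160 unlisted and 64 control probe sets stayed out of the gene tests. By Entrez number, 34741 were matched to RefSeq symbols of GRCm38.p6, which altered 0 of them. This left 18193 genes, each read by its brightest probe set on average. A model of the 4 groups was fitted over the 8 arrays with lmFit and eBayes in limma 3.58.1 (R 4.3.3), with Benjamini-Hochberg adjustment over all genes and calls at an adjusted p under 0.05. All tests were two-sided, and SE is the moderated standard error. Simulated data served to test the fit. Intervals are 95% intervals from the moderated fit, not adjusted for the number of genes.

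The members and lists were chosen with earlier results of these data known. All members are named. Of each other list the text names called genes, at most 6 by smallest p, and Birc5 besides because its difference was the widest of its list. For each of 2 members it names the 4 genes with the nearest pattern. Marker genes are named where a result turns on them. Alternatives were a filter on dim genes, the mean of all probe sets, every probe set, the compared arrays alone, trend and robust moderation, cyclic loess, median centring, weighting of arrays, a block for replicate number, and omission of single arrays. Figures were made with matplotlib 3.10.9, and tables with Python 3.11.15 and pandas 2.3.3.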

Additional observations from a re-analysis of the deposited data

How the results depend on the processing

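Over the 20 differences of single members that passed, the direction was the same in all 312 alternative values, and 29 lost the call; of 43 that did not pass, 9 of 669 alternative values did. For beads averaged over subsets, the count of members called was 1, and 0 with cyclic loess and with the mean of all probe sets, and 0 to 1 when 1 array was left out. Between subsets averaged over bead state the count of 7 was 6 to 7 with 1 array left out and 7 to 8 in the other settings; with beads the count of 6 was 4 to 6 and 6 to 7, and without beads the count of 6 was 4 to 6 and 5 to 7. Mcl1 averaged over bead state passed with the mean of all probe sets, cyclic loess, median centring, and trend and robust moderation. Where an array is left out, the group left with 1 array is taken to vary like the others. The averaged comparisons and the difference between bead differences use all arrays, so fitting compared arrays alone adds nothing there. The labels do not say that replicate numbers mark shared mice or days, and the correlation of replicate differences was over 0.1 in 2 of 6 pairs of groups (from -0.02 to 0.36). With the replicate block, the counts were 7 averaged over bead state, 6 with and 6 without beads, 1 for beads averaged over subsets, and 0 for beads in Gr1lo, in Gr1hi and for their difference. With 2 arrays a group, small differences are hard to detect.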
